A study of Mus musculus with 10 samples.

Results

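The genes described here are 34 genes that carry glucose into the cell, break it down to pyruvate, exchange pyruvate and lactate, decide whether pyruvate is oxidized in mitochondria, or run the chain back toward glucose. They were chosen by gene name, and all 34 were among the 16875 gene names of the table. Each of the 34 passed the filter on low values, a mean of at least 0.5 FPKM over the tumors. FPKM is a fragment count divided by the length of the transcript in kilobases and by the mapped fragments of the library, so levels of different genes can be set side by side on this scale.

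The values came from RNA sequencing of 10 colon tumors of mice, 5 control and 5 Villin-WlscKO, cut out of the colon by macrodissection. All mice were of C57Bl6 background, started at 6 to 10 weeks of age, and received azoxymethane followed by 3 cycles of 2% dextran sulfate sodium in the drinking water (AOM/DSS), a model of colon cancer driven by inflammation. Both groups carried Wls flox/flox, a conditional allele of Wls, whose product is needed for the secretion of Wnt ligands. The Villin-WlscKO mice also carried Villin-Cre ERT2, a recombinase under a promoter of the intestinal epithelium that works only after tamoxifen, so that stromal and immune cells are not meant to lose Wls. They were injected with tamoxifen 5 times at 80 mg/kg, the first time 30 days before the tumors were collected. Control tumors of the study had, unless otherwise stated, received no tamoxifen, so genotype and tamoxifen cannot be told apart. How many mice gave the 10 tumors is not stated in the sources used here, so n counts tumors and p-values measure the spread between these tumors.

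Glycolysis splits glucose into pyruvate in a chain of cytosolic reactions. Most steps have several isozymes, and hexokinase and phosphofructokinase are the steps at which the flow is mainly set. Pyruvate is either reduced to lactate by lactate dehydrogenase or oxidized in mitochondria by the pyruvate dehydrogenase complex, which pyruvate dehydrogenase kinases switch off. Many genes of this chain are known targets of the hypoxia-inducible factor HIF-1, and in the colon the mature absorptive cells live mainly on butyrate from bacteria, whereas tumors are known for high glucose use.

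Wls itself lay at 61.3 to 79.9 FPKM in the control and at 2.03 to 11.7 FPKM in the Villin-WlscKO tumors, and Epcam, an epithelial marker, lay at 923 to 1043 and at 911 to 1321 FPKM. The groups differed in sex-linked transcripts as well: Xist was at 0.0366 to 0.4199 FPKM in control and at 439 to 701 FPKM in Villin-WlscKO tumors, and Eif2s3y of the Y chromosome was at 30.4 to 46.6 and at 0 to 0.138 FPKM. Sex, as read from these transcripts, therefore cannot be told apart from genotype. The methods of the study report a preference for female mice, whereas every control tumor held transcripts of the Y chromosome and almost no Xist. Villin-WlscKO tumors 2 and 3 stood apart from the others by Krt5, a keratin of stratified squamous epithelium, with 469.5 and 669 FPKM against at most 0.315 FPKM in any other tumor, and results are also given without them. In whole tumors, fewer cells of a type and less RNA per cell cannot be told apart.

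Of the 34 genes, 10 passed an adjusted p of 0.05 in limma, and in Villin-WlscKO tumors 8 of these were higher and 2 lower. Over all 16757 genes tested, 10.9% passed, 6.12% higher and 4.75% lower, against 29.4% of the 34 genes, 23.5% higher and 5.88% lower. The higher genes were Slc2a1, Hk2, Pfkp, Aldoa, Pgk1, Eno1, Ldha and Pdk1, which belong to uptake, to the hexokinase, phosphofructokinase, aldolase, phosphoglycerate kinase, enolase and lactate dehydrogenase steps, and to the kinases of pyruvate dehydrogenase. The lower genes were Eno3 and Pdk4. Of the 24 other genes, 17 had a positive and 7 a negative change that did not pass. The median change of the 34 genes was 0.25 on the log2(FPKM + 1) scale, Villin-WlscKO minus control, beside 0.0073 over all genes tested, and 73.5% of the 34 changes were positive beside 51.4% of all.

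For 7 of the 34 genes the 5 Villin-WlscKO values did not overlap the 5 control values. Hk2, Pfkp, Aldoa, Pgk1, Eno1 and Pdk1 lay above and Pdk4 below. That is 20.6% of the 34 genes beside 10.1% of all genes tested, 17.6% beside 5.33% for those above and 2.94% beside 4.76% for those below. Exact permutation of the group labels (two-sided, every arrangement) gives any gene without overlap an unadjusted p of 0.00794, the smallest possible with these group sizes. For the 7 genes this p therefore restates the lack of overlap and is no further test. For the other genes past the threshold the unadjusted permutation p was 0.0238 (Slc2a1), 0.0238 (Ldha) and 0.0159 (Eno3). Summed over the 34 genes, FPKM lay between 2236 and 2761 in control and between 2725 and 3188 in Villin-WlscKO tumors. The ranges overlapped, with control tumor 3 above Villin-WlscKO tumor 2. As a share of all FPKM of a tumor the sum was between 0.156% and 0.194% in control and between 0.222% and 0.244% in Villin-WlscKO tumors. The total FPKM in the denominator differed as well, between 1265992 and 1533885 in control and between 1207683 and 1341494 in Villin-WlscKO tumors.

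**Figure D1:**
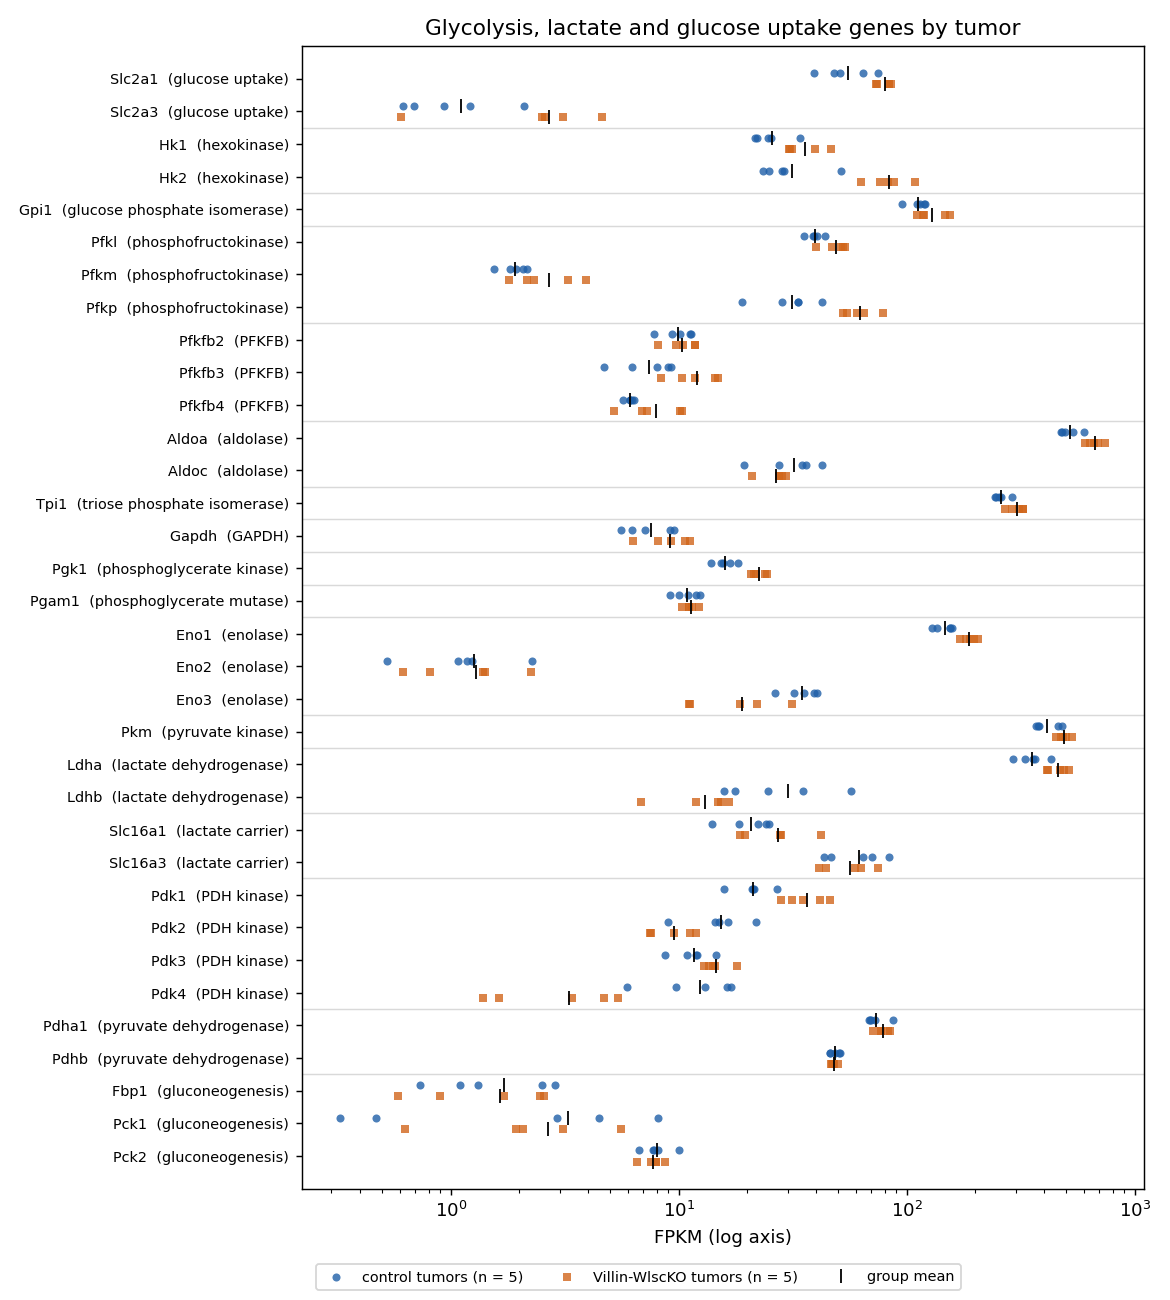
FPKM (log axis) of the 34 genes in each tumor, control as circles and Villin-WlscKO as squares, with the group mean as a vertical bar and the reaction step in brackets. Aldoa is the most abundant gene, at 476 to 743 FPKM over the 10 tumors, and the squares of Hk2, Pfkp, Aldoa, Pgk1, Eno1 and Pdk1 lie to the right of all their circles, those of Pdk4 to the left.

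The levels spanned a wide range. Averaged over the 10 tumors, Aldoa was highest at 593 FPKM, followed by Pkm at 451 FPKM, Ldha at 407 FPKM, Tpi1 at 281 FPKM, Eno1 at 167 FPKM and Gpi1 at 121 FPKM. Eno2, an isozyme best known from neurons, was lowest at 1.28 FPKM, below Fbp1 at 1.68 FPKM, Slc2a3 at 1.90 FPKM and Pfkm at 2.30 FPKM. Gapdh, usually among the most abundant transcripts of any tissue, stood at only 8.33 FPKM and Pgk1 at only 19.2 FPKM. Transcripts of 77 other genes, 74 of them pseudogenes, matched a Gapdh transcript at 95% identity or more over at least 300 bases, for Pgk1 there were 4 such genes, and for Eno1 and Ldha 3 each. Whether reads were shared with these copies was not tested, and the levels of these genes, above all of Gapdh, are therefore uncertain.

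Since many genes of this pathway are known targets of HIF-1, the sequences in front of the genes were searched for short motifs, as a description only. The core of the hypoxia-response element is written as ACGTG or GCGTG, and the E-box bound by MYC and related factors is written as CACGTG, which contains ACGTG. Both were searched on either strand in the 250 bases before each RefSeq start (mouse build GRCm38.p6), of which 33 of the 34 genes had 49 in all. Slc2a3 was not matched. For 6 of the genes past the threshold, 1 window each of 160 bases up to the start of transcription is printed here on the strand of the gene. Each overlaps no annotated exon and holds at least 1 match, with the matches in capitals. The window of the other Ldha start meets the same conditions, and it is described below but not printed. The window of 1 Eno1 start also overlaps no exon, but holds no match and is not printed. A match in the opposite direction reads as CACGT or CACGC.

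Hk2 chr6:82774455-82774614 minus strand: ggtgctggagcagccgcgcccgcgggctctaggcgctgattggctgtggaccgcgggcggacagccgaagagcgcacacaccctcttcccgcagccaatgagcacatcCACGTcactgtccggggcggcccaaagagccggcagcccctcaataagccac
Aldoa chr7:126799255-126799414 minus strand: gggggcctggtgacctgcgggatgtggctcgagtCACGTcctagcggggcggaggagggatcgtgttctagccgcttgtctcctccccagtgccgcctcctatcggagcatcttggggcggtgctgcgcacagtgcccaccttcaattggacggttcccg
Pgk1 chrX:106186940-106187099 plus strand: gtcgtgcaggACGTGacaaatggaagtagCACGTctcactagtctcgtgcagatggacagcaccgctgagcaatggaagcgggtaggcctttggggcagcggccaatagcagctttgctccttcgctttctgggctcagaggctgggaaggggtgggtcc
Eno3 chr11:70657016-70657175 plus strand: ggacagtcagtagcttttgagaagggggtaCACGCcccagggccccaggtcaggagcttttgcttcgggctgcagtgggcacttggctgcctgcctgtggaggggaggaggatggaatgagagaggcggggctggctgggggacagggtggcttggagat
Ldha chr7:46845644-46845803 plus strand: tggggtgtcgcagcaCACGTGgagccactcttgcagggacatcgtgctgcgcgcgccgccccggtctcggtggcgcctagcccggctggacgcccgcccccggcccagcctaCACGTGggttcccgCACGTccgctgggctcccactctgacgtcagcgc
Pdk1 chr2:71873064-71873223 plus strand: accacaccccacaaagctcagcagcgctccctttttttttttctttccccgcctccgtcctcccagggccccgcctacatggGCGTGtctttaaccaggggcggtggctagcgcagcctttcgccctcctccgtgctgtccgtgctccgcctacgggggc

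The Ldha window holds a pair of full E-boxes, 145 and 48 bases before the start, and a further ACGTG core. It lies before 1 of 2 Ldha starts, and the bases after that start are in no GENCODE transcript, as is so for Eno3. The window of the other Ldha start, which is within a GENCODE transcript, also overlaps no exon and holds 1 GCGTG core and no E-box. The Pgk1 window holds its cores 150 and 131 bases before the start in opposite directions, and the Hk2 window holds one 52 bases before the start. Eno3, the only printed gene that was lower in Villin-WlscKO tumors, carries a match too, 130 bases before its start. The Ldha and Aldoa windows lie inside an intron of longer transcripts of the same genes. At least 1 core was found in 77.6% of the 49 promoters of these genes, 38 in number, beside 53.5% of the promoters of all genes tested here and 38.6% of all promoters of the same length. Among the promoters of the 10 genes past the threshold the count was 14 of 16, and among those of the other genes 24 of 33. Starts of a gene can lie so close together that the same match counts for more than 1 promoter, as at Eno1, Aldoa and Pfkm. CACGTG occurred in 12.2% of the 49 promoters, beside 7.96% for genes tested, and here the count was 1 of 16 for the genes past the threshold and 5 of 33 for the others. A match is a stretch of letters and does not show that a factor was bound there.

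**Figure D2:**
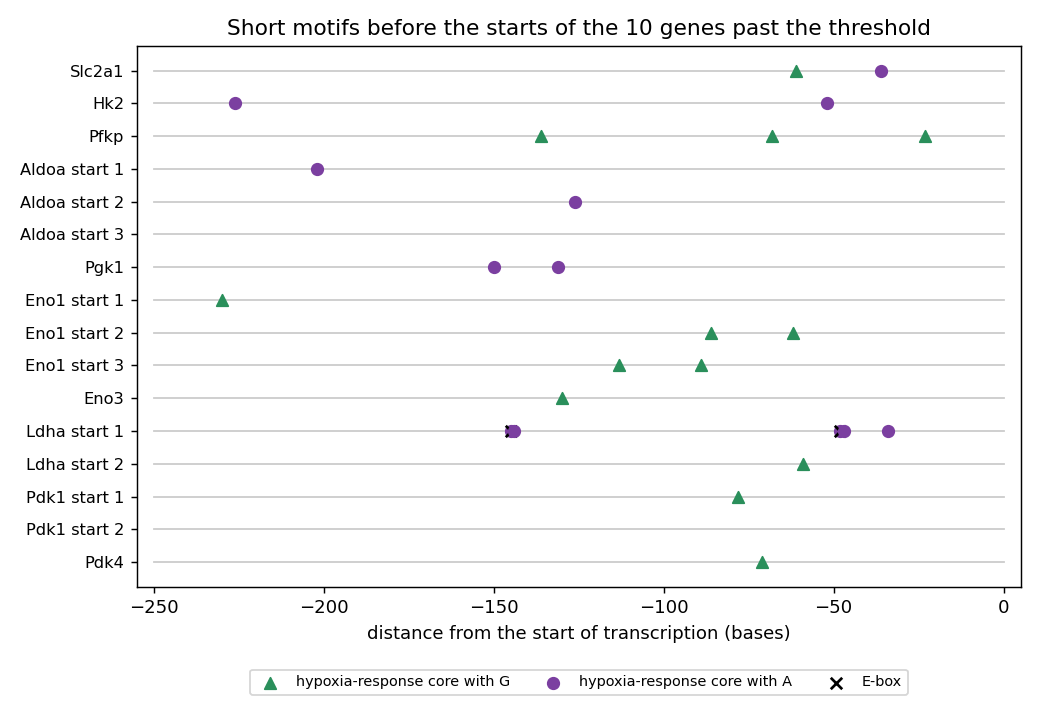
Positions of hypoxia-response cores (triangles for the form with G, circles for the form with A) and E-boxes (crosses) in the 250 bases before each RefSeq start of the 10 genes past the threshold, in bases from the start of transcription. Of these 16 promoters 14 hold at least 1 core, and those of the third Aldoa start and the second Pdk1 start hold none.

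Entry of glucose and its first phosphorylation held the gene with the largest rise. Slc2a1 (chromosome 4, 119108711 to 119137983, plus strand in GENCODE M21), which encodes the basal glucose carrier GLUT1, stood at 39.04, 64.1, 74.97, 48.04 and 50.98 FPKM in control tumors 1 to 5 and at 85.4, 74.4, 83.2, 83.9 and 72.96 FPKM in Villin-WlscKO tumors 1 to 5. The 5 Villin-WlscKO values lay close together, and only control tumor 3 reached into their range. The means were 55.4 ± 14.1 and 79.97 ± 5.83 FPKM (SD, n = 5 each), a ratio of 1.44 and a change of 0.55 on the log2(FPKM + 1) scale (SE 0.153, limma adjusted p = 0.0437). This call was a narrow one: with 1 tumor left out at a time it passed only without control tumor 3 (change 0.67, adjusted p = 0.0103), and without Villin-WlscKO tumors 2 and 3 the change was 0.57 (adjusted p = 0.126). The call was also lost with quantile normalization (0.48, adjusted p = 0.0598) and with eBayes without trend (adjusted p = 0.0519). Slc2a3, the carrier GLUT3 of neurons and white blood cells, ranged over 0.616 to 2.098 FPKM in control and over 0.608 to 4.602 FPKM in Villin-WlscKO tumors and did not pass (adjusted p = 0.163).

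Hk2 (chromosome 6, 82725025 to 82774454, minus strand), the inducible hexokinase that sits on mitochondria and traps glucose in the cell, read 24.98, 28.5, 51.7, 23.5 and 28.9 FPKM in the control tumors. In the Villin-WlscKO tumors it read 88.2, 62.7, 108, 82.9 and 76.1 FPKM, so that the lowest of them exceeded the highest control, tumor 3, which itself stood well above the other controls. The means were 31.5 ± 11.5 and 83.6 ± 16.7 FPKM, a ratio of 2.65, with a change of 1.42 (SE 0.21005, adjusted p = 0.00224). Without Villin-WlscKO tumors 2 and 3 it was 1.42 (adjusted p = 0.00994). Hk1, the hexokinase found in most tissues, ranged over 21.6 to 34.1 FPKM in control and 30.4 to 46.4 FPKM in Villin-WlscKO tumors, a change of 0.46 that did not pass (adjusted p = 0.0791).

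Gpi1, which turns phosphorylated glucose into its fructose isomer, was at 119, 114, 120.1, 95.4 and 111 FPKM in control and at 118, 111, 147, 119 and 154 FPKM in Villin-WlscKO tumors. Villin-WlscKO tumors 3 and 5 lay above every control tumor and the other 3 among them, and the change of 0.20 did not pass (adjusted p = 0.269).

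At phosphofructokinase, the committed step, Pfkp was the isozyme that rose. Pfkp (chromosome 13, 6579768 to 6648777, minus strand), the platelet form, stood at 18.98, 33.2, 42.5, 28.4 and 33.3 FPKM in control and at 60.2, 52.6, 64.6, 54.7 and 78.99 FPKM in Villin-WlscKO tumors. Every Villin-WlscKO value lay above every control value, and control tumor 1 was the lowest of all. Its mean went from 31.3 ± 8.55 to 62.2 ± 10.5 FPKM, a ratio of 1.99 and a change of 1.00 (SE 0.1904, adjusted p = 0.008304), and without Villin-WlscKO tumors 2 and 3 the change was 1.05 (adjusted p = 0.0339). Pfkp overlaps the coding gene Pitrm1 in the annotation, and since it is not stated whether quantification used strand, reads in the overlap cannot be told apart.

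Pfkl, the liver form, ranged over 35.5 to 43.9 FPKM in control and 39.9 to 53.6 FPKM in Villin-WlscKO tumors (change 0.29, adjusted p = 0.0661), which did not pass. It passed, with a change of 0.36 and an adjusted p of 0.0169, when Villin-WlscKO tumor 2 was left out. Pfkm, the muscle form, was low throughout, at 1.55 to 2.17 and 1.79 to 3.91 FPKM, and did not pass (adjusted p = 0.245).

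The bifunctional PFKFB enzymes make and remove the fructose bisphosphate that activates phosphofructokinase, and none of the 3 measured members passed in limma, with 1 of the 3 at an unadjusted p under 0.05. Pfkfb2 had the highest mean of them, with 11.2, 11.3, 10.1, 7.76 and 9.38 FPKM in control and 10.4, 8.08, 11.8, 11.7 and 9.75 FPKM in Villin-WlscKO tumors, and these values overlapped fully (change 0.05, adjusted p = 0.849). Its entry shares all values with C4bp-ps1 and Gm29427, so the 3 names cannot be told apart. Pfkfb3, the form with the strongest kinase activity, ranged over 4.69 to 9.27 and 8.401 to 14.9 FPKM (change 0.63, adjusted p = 0.0689), and Pfkfb4 over 5.696 to 6.34 and 5.21 to 10.3 FPKM (change 0.30, adjusted p = 0.259). Leaving out Villin-WlscKO tumor 5 put Pfkfb3 past the threshold, at 0.74 with an adjusted p of 0.0442.

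In the steps from fructose bisphosphate to pyruvate, one isozyme rose at each of aldolase, phosphoglycerate kinase and enolase, and a second enolase fell. Aldoa (chromosome 7, 126795234 to 126800751, minus strand), which splits the phosphorylated sugar, read 479.8, 496, 599.6, 476 and 537 FPKM in control and 662, 603, 691, 638 and 743 FPKM in Villin-WlscKO tumors. The groups did not overlap, but only just, since control tumor 3 and Villin-WlscKO tumor 2 nearly met. The means of 518 ± 51.7 and 667 ± 52.9 FPKM gave a ratio of 1.29 and a change of 0.37 (SE 0.0867, adjusted p = 0.0225). The call was lost without control tumor 2 (0.35, adjusted p = 0.058), control tumor 4 (0.34, 0.0591), Villin-WlscKO tumor 3 (0.35, 0.0554) or Villin-WlscKO tumor 5 (0.33, 0.0512), and without Villin-WlscKO tumors 2 and 3 together it was 0.40 (adjusted p = 0.0612). With quantile normalization the change of Aldoa was only 0.13 (adjusted p = 0.304). Aldoa shares its entry with Gm15676 and overlaps Fam57b. Aldoc, the aldolase of brain, ranged over 19.4 to 42.5 and 21.01 to 29.5 FPKM without passing (change -0.21, adjusted p = 0.528).

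Tpi1, which interconverts the products of that split, stood at 255, 245, 291, 244 and 258 FPKM in control and at 312, 271, 323, 288 and 323 FPKM in Villin-WlscKO tumors. Control tumor 3 exceeded 2 of the Villin-WlscKO tumors, and the change of 0.23 did not pass (adjusted p = 0.0782). It passed without control tumor 3 (0.27, adjusted p = 0.0378) and without Villin-WlscKO tumor 2 (0.27, adjusted p = 0.0497). Gapdh, which oxidizes the resulting triose, was at 9.19, 5.58, 9.56, 7.12 and 6.24 FPKM in control and 6.28, 10.7, 9.25, 11.2 and 8.15 FPKM in Villin-WlscKO tumors, overlapping widely (change 0.25, adjusted p = 0.429), with the reservation on its copies given above.

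Pgk1 (chromosome X, 106187100 to 106203699, plus strand), which makes the first ATP of the pathway, read 16.8, 13.8, 18.1, 15.6 and 15.3 FPKM in control and 21.9, 21.4, 24.3, 20.7 and 23.95 FPKM in Villin-WlscKO tumors. The spread within each group was small and the groups were apart. Its mean rose from 15.9 ± 1.64 to 22.5 ± 1.59 FPKM, a ratio of 1.41 and a change of 0.47 (SE 0.0835, adjusted p = 0.00559). Without Villin-WlscKO tumors 2 and 3 the change was 0.46 (adjusted p = 0.0338). Pgk1, Pdk3 and Pdha1 lie on the X chromosome, whose dose differs between the sexes. Of the 519 X-linked genes tested, 26 passed as higher and 17 as lower, with a median change of -0.016. Among all genes tested the shares were 6.12% and 4.75%, with a median change of 0.0073.

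Pgam1, which moves the phosphate group along the molecule, was at 10.05, 10.9, 11.9, 12.3 and 9.13 FPKM in control and at 10.3, 11.1, 11.5, 12.3 and 11.1 FPKM in Villin-WlscKO tumors. The values covered the same range (change 0.05, SE 0.0913, adjusted p = 0.777).

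Of the enolases, which make phosphoenolpyruvate, Eno1 (chromosome 4, 150236721 to 150248879, plus strand) is the form of most tissues and Eno3 (chromosome 11, 70657202 to 70662513, plus strand) that of muscle. Eno1 read 155, 129.6, 158, 155 and 135 FPKM in control and 205, 171, 181, 189 and 197 FPKM in Villin-WlscKO tumors, with no overlap. The means of 147 ± 13.02 and 188 ± 13.3 FPKM gave a ratio of 1.29 and a change of 0.36 (SE 0.0777, adjusted p = 0.0152), and without Villin-WlscKO tumors 2 and 3 it was 0.43 (adjusted p = 0.0254).

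Eno3 moved in the opposite direction, from 40.5, 39.2, 31.9, 26.5 and 35.5 FPKM in control to 21.99, 11.2, 18.6, 11.1 and 31.5 FPKM in Villin-WlscKO tumors. All but Villin-WlscKO tumor 5 lay below every control tumor. The ratio of means was 0.543 and the change -0.94 (SE 0.263, adjusted p = 0.0463). This call was fragile: with 1 tumor left out at a time it passed only without Villin-WlscKO tumor 5 (-1.14, adjusted p = 0.0125), and without Villin-WlscKO tumors 2 and 3 it was -0.76 (adjusted p = 0.164). It was also lost when all tumors were brought to 1 common FPKM total (-0.82, adjusted p = 0.0544) and with eBayes without trend (adjusted p = 0.0517). Of 9 markers of skeletal muscle 1 was in the table and it did not pass. Of 10 smooth muscle markers 1, Mylk, passed as lower, but 8 of the 10 changes were positive, with a median change of 0.24. The smooth muscle markers summed to 102 to 189 FPKM in control and 105 to 187 FPKM in Villin-WlscKO tumors. The part of muscle cells in the change of Eno3 was not tested. Eno2 ranged over 0.525 to 2.27 and 0.619 to 2.25 FPKM and did not pass (adjusted p = 0.968).

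Pkm, which makes pyruvate and the last ATP of the chain, stood at 462, 380.3, 482, 367 and 377 FPKM in control and 473, 501, 532, 452 and 484 FPKM in Villin-WlscKO tumors. Control tumors 1 and 3 lay within the Villin-WlscKO range and the other 3 below it, and the change of 0.25 (SE 0.0932) did not pass (adjusted p = 0.123). The values are per gene name, so the splice forms of Pkm, which differ between tumors and resting tissue in many settings, were not separated.

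Of the lactate dehydrogenase subunits, Ldha rose and Ldhb did not pass. Ldha (chromosome 7, 46841475 to 46855627, plus strand), the form that favors making lactate, read 363, 293, 427, 330.4 and 357 FPKM in control and 471, 417, 489, 413 and 513 FPKM in Villin-WlscKO tumors. Only control tumor 3 reached the Villin-WlscKO range. The means of 354 ± 49.2 and 461 ± 44.2 FPKM gave a ratio of 1.301 and a change of 0.38 (SE 0.106, adjusted p = 0.0437). With 1 tumor left out at a time the call held only without control tumor 3 (0.45, adjusted p = 0.0167), Villin-WlscKO tumor 2 (0.42, 0.0485) or Villin-WlscKO tumor 4 (0.42, 0.0471), and without Villin-WlscKO tumors 2 and 3 it was 0.40 (adjusted p = 0.109). With quantile normalization the change of Ldha was 0.19 (adjusted p = 0.196), and with eBayes without trend the adjusted p was 0.0528.

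Ldhb, the form that favors using lactate, ranged over 15.7 to 56.8 FPKM in control and 6.801 to 16.6 FPKM in Villin-WlscKO tumors. Its change of -1.04 had an SE of 0.346 and did not pass (adjusted p = 0.0852), but did so without control tumor 3 (-1.22, adjusted p = 0.0482). Of the lactate carriers, Slc16a3 (MCT4), which exports lactate, was at 43.6, 70.7, 83.5, 46.5 and 64.04 FPKM in control and 62.7, 59.4, 41.3, 74.8 and 44.1 FPKM in Villin-WlscKO tumors. The groups overlapped throughout (change -0.12, SE 0.212, adjusted p = 0.787). Slc16a1 (MCT1), which also carries butyrate, ranged over 13.9 to 24.96 and 18.6 to 42.2 FPKM (change 0.35, adjusted p = 0.377).

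The kinases that inactivate pyruvate dehydrogenase divided, with Pdk1 higher and Pdk4 lower. Pdk1 (chromosome 2, 71873224 to 71903858, plus strand), a known target of HIF-1, read 21.3, 26.9, 21.2, 20.9 and 15.8 FPKM in control and 35.01, 27.99, 41.5, 31.3 and 45.9997 FPKM in Villin-WlscKO tumors. The groups did not overlap, though Villin-WlscKO tumor 2 came close to control tumor 2. Its mean went from 21.2 ± 3.92 to 36.4 ± 7.36 FPKM, a ratio of 1.71 and a change of 0.75 (SE 0.158, adjusted p = 0.0142), and without Villin-WlscKO tumors 2 and 3 it was 0.79 (adjusted p = 0.0318).

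Pdk4 (chromosome 6, 5483351 to 5496309, minus strand), the form known to rise in fasting and under fatty acid use, fell the most of the 34 genes, from 16.3, 9.75, 5.93, 16.99 and 13.1 FPKM in control to 4.72, 1.38, 5.39, 1.62 and 3.401 FPKM in Villin-WlscKO tumors. The highest Villin-WlscKO value lay just under the lowest control value, and the other controls were far above. The means of 12.4 ± 4.62 and 3.301 ± 1.79 FPKM gave a ratio of 0.266 and a change of -1.67 (SE 0.344, adjusted p = 0.0125), and without Villin-WlscKO tumors 2 and 3 it was -1.65 (adjusted p = 0.0306).

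Pdk2, found in most tissues, ranged over 8.999 to 21.7 FPKM in control and 7.45 to 11.9 FPKM in Villin-WlscKO tumors (change -0.60, adjusted p = 0.09497), and passed only where control tumor 4 was left out (-0.77, adjusted p = 0.0254). Pdk3 ranged over 8.66 to 14.5 and 12.96 to 18.04 FPKM (change 0.32, adjusted p = 0.155). Added together, the 4 kinases made up 54.0 to 69.2 FPKM in control and 54.6 to 75.7 FPKM in Villin-WlscKO tumors. The sum thus covered about the same range in both groups, while its makeup differed: Pdk1 made up 34.9% ± 4.40 of it in control and 56.6% ± 3.57 in Villin-WlscKO tumors, and Pdk4 20.5% ± 7.46 and 5.01% ± 2.42 (SD, n = 5 each).

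Neither subunit of pyruvate dehydrogenase passed. Pdha1, the catalytic subunit that they phosphorylate, was at 86.6, 68.1, 69.4, 68.9 and 72.4 FPKM in control and 76.7, 71.4, 84.7, 77.3 and 82.9 FPKM in Villin-WlscKO tumors. The groups overlapped, with control tumor 1 the highest of all 10 (change 0.11, SE 0.0797, adjusted p = 0.448). Pdhb, its partner subunit, was the steadiest of the 34 genes by standard error, at 46.1 to 51.1 and 46.3 to 50.1 FPKM (change -0.02, SE 0.0534, adjusted p = 0.863).

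The genes that run the chain backwards, toward glucose, did not pass, nor did any of the 3 have an unadjusted p under 0.05 in limma. Pck2, the mitochondrial enzyme that makes phosphoenolpyruvate, was at 6.67, 7.77, 8.07, 7.71 and 10.03 FPKM in control and 6.54, 7.54, 7.95, 8.67 and 7.96 FPKM in Villin-WlscKO tumors (change -0.05, SE 0.109, adjusted p = 0.8404). Its cytosolic counterpart Pck1 varied widely within each group, over 0.327 to 8.08 and 0.631 to 5.58 FPKM, and had the largest standard error of the 34 genes (change 0.01, SE 0.559, adjusted p = 0.993). Fbp1, which reverses the phosphofructokinase step, ranged over 0.731 to 2.88 and 0.586 to 2.56 FPKM (adjusted p = 0.959). Fbp2, a second gene for the same step that is not among the 34, was far more abundant, at 56.9 to 93.9 FPKM in control and 61.4 to 105 FPKM in Villin-WlscKO tumors, and did not pass either (change 0.25, adjusted p = 0.352).

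**Figure D3:**
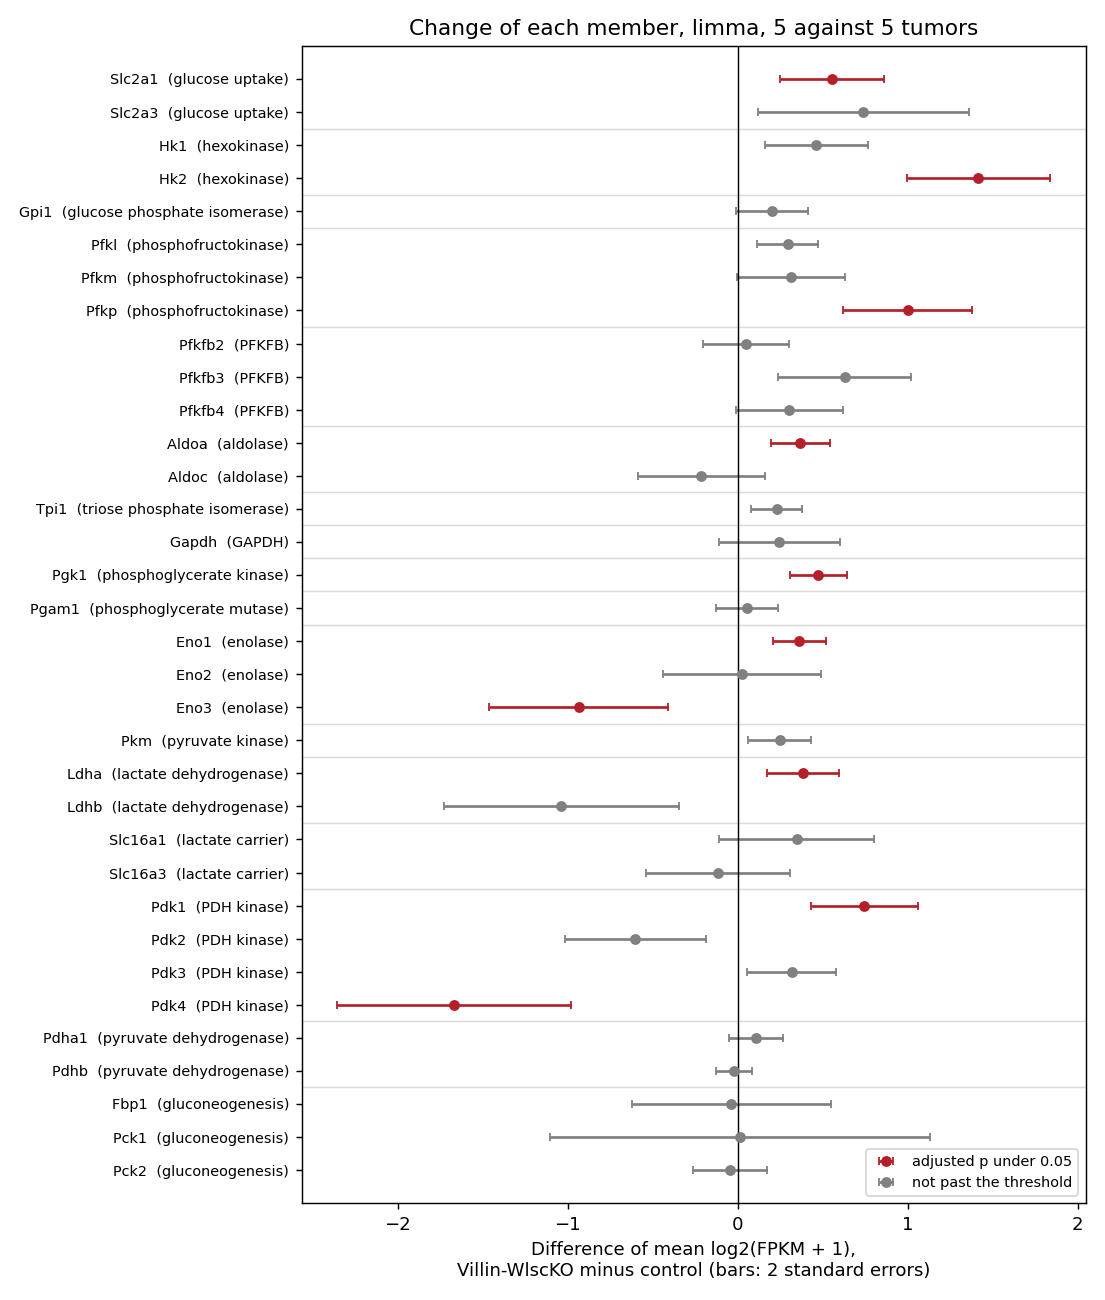
Difference of mean log2(FPKM + 1) between Villin-WlscKO and control tumors for each of the 34 genes, with bars of 2 standard errors from limma and genes past an adjusted p of 0.05 in red. Hk2 at 1.42 and Pfkp at 1.00 lie farthest to the right and Pdk4 at -1.67 farthest to the left, and the longest bars belong to Pck1.

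A ratio of a pair of genes within a tumor does not depend on how tumors are scaled against each other. Of 16 ratios tested, 5 passed an adjusted p of 0.05 when the group labels were permuted exactly (two-sided, every arrangement), each with the smallest p possible, 0.00794, or 0.0254 after Benjamini-Hochberg adjustment over the 16 ratios. In all 5 the groups did not overlap. With 1 tumor left out the smallest possible p rises to 0.0159, and 7 ratios then passed without control tumor 1, 6 without control tumor 4 and 0 without any of the other tumors, where the lowest adjusted p was 0.0508.

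Hk2 over Hk1 was 1.16, 1.15, 1.52, 1.06 and 1.14 in control and 2.86, 2.06, 2.33, 2.65 and 1.93 in Villin-WlscKO tumors, a difference of 0.97 in mean log2 ratio, and the share of Hk2 in the sum of both went from 54.4% ± 3.38 to 70.0% ± 3.47. Pfkp over Pfkl was 0.432, 0.847, 1.05, 0.799 and 0.859 in control and 1.29, 1.32, 1.21, 1.06 and 1.51 in Villin-WlscKO tumors, a difference of 0.73. Pfkp thus exceeded Pfkl in 1 of the 5 control and in all 5 Villin-WlscKO tumors.

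Eno3 over Eno1 was 0.262, 0.303, 0.202, 0.171 and 0.262 in control and 0.107, 0.0654, 0.103, 0.0587 and 0.1597 in Villin-WlscKO tumors, a difference of -1.35 in mean log2 ratio. Ldha over Ldhb was 20.6, 11.9, 27.1, 9.3999 and 6.29 in control and 69.2, 28.2, 29.5, 34.8 and 33.3 in Villin-WlscKO tumors, a difference of 1.48, with the highest control value just under the lowest Villin-WlscKO value. Since Ldha was the bulk of lactate dehydrogenase in every tumor, its share went only from 92.1% ± 4.08 to 97.2% ± 0.794.

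Pdk1 over Pdk2 separated the groups most cleanly, at 1.302, 1.24, 1.42, 2.32 and 1.09 in control and 3.67, 3.76, 3.701, 4.12 and 3.87 in Villin-WlscKO tumors. The difference in mean log2 ratio was 1.43, and the SD of the log2 ratio was 0.419 in control and 0.0684 in Villin-WlscKO tumors. The other 11 ratios did not pass. Among them Pdk3 over Pdk2 differed by 1.00 (exact permutation p = 0.0317, adjusted p = 0.0847) and Pdk4 over Pdk2 by -1.36 (exact permutation p = 0.0476, adjusted p = 0.0952).

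**Figure D4:**
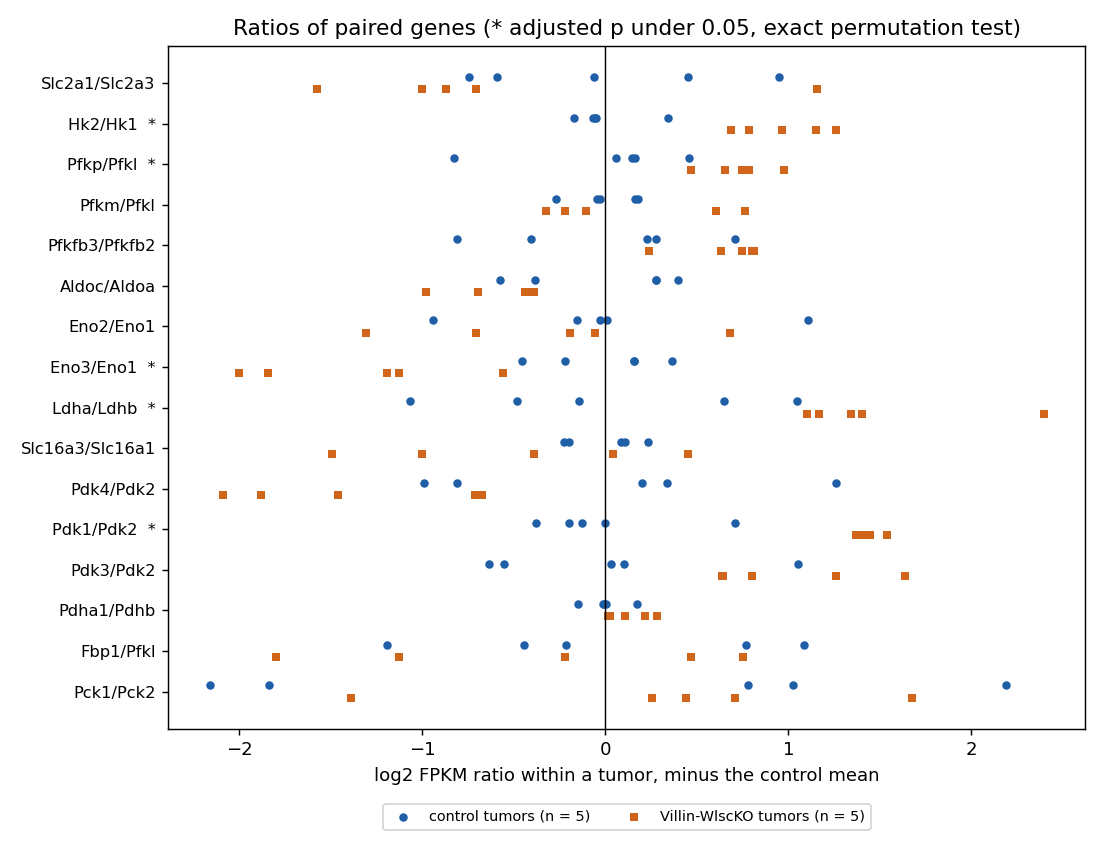
Log2 ratio of the FPKM of a pair of genes in each tumor minus the control mean of that ratio, control as circles and Villin-WlscKO as squares, with a star where the adjusted p of the exact permutation test is under 0.05. The 5 starred ratios have no overlap between circles and squares, and the 5 squares of Pdk1/Pdk2 are packed closely (SD 0.0684).

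Neighboring pathways were read in the same fit, in which 6.12% of all genes tested passed as higher and 4.75% as lower. Of 42 other genes of glucose, glycolysis and pyruvate handling in the table, 2 passed as higher, 1 as lower, and 39 did not pass, with a median change of 0.047. The higher genes were Ldhd, which oxidizes the D form of lactate in mitochondria, and Pgm1, which links glycogen and glycolysis. Ldhd stood at 4.16, 3.501, 2.33, 3.65 and 3.87 FPKM in control and at 9.87, 6.76, 12.5, 7.59 and 9.11 FPKM in Villin-WlscKO tumors (change 1.16, SE 0.169, adjusted p = 0.00198), with no overlap. Pgm1 changed by 0.27 (adjusted p = 0.0423), and Pgm2l1, which makes glucose bisphosphate, by -0.82 (adjusted p = 0.0497).

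The pentose phosphate pathway branches off after hexokinase and makes NADPH. Of its 8 genes measured here 3 passed, all higher: G6pdx at 49.1 to 60.9 and 66.2 to 75.9 FPKM, H6pd at 7.79 to 19.4 and 24.1 to 34.8 FPKM and Pgd at 128 to 181 and 198 to 271 FPKM in control and Villin-WlscKO tumors. These 3 enzymes catalyze the oxidative steps, H6pd within the endoplasmic reticulum. The groups did not overlap for any of the 3, and their changes were 0.35, 1.30 and 0.62 (adjusted p = 0.0119, 0.006197 and 0.009098). G6pdx, like Pgk1, lies on the X chromosome.

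Of 19 hypoxia-inducible genes outside the 34 that were in the table, 3 passed as higher and 16 did not pass, with a median change of 0.12 and 10 of 19 changes positive. The 3 were Ero1l, which oxidizes disulfide bonds in the endoplasmic reticulum (1.20, adjusted p = 6.67e-05), the peptide hormone gene Adm (0.78, adjusted p = 0.00334) and Egln3, a prolyl hydroxylase that marks HIF subunits for decay (0.52, adjusted p = 0.0321). Of 22 HIF subunits and other regulators of glucose genes, 2 passed, both higher. Among all genes tested, 10.9% passed in either direction and 6.12% as higher. Hif1a, the oxygen-regulated subunit of HIF-1, stood at 48.1, 53.6, 79.4, 73.96 and 61.8 FPKM in control and 109, 86.1, 98.4, 116 and 90.97 FPKM in Villin-WlscKO tumors (change 0.67, SE 0.142, adjusted p = 0.0148), with no overlap. Its activity is set mainly by the stability of the protein, which was not measured here. Ppard, a nuclear receptor that senses fatty acids and has Pdk4 among its known targets, changed by 0.80 (adjusted p = 0.0321).

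Markers of several cell types moved with the groups, and their part in the changes of the glucose genes was not tested. The share past the threshold among all genes tested was 10.9%. Of 10 goblet cell markers 6 passed as higher, with the largest changes in Retnlb, Muc2, Spink4, Agr2 and Reg4. Their summed level was 2778 to 12445 FPKM in control and 23828 to 29477 FPKM in Villin-WlscKO tumors. Most of that sum was Spink4 alone, at 1918 to 9586 FPKM in control and 19568 to 24052 FPKM in Villin-WlscKO tumors. For Tff3, Clca1, Fcgbp and Zg16 the groups overlapped, and the change of Clca1 was negative (-0.24). Of the 9 T cell markers measured, 4 passed as higher (Cd3d, Cd3e, Cd3g and Cd8a), with sums of 13.5 to 21.97 and 21.9 to 44.7 FPKM. No neutrophil marker passed in limma among the 7 tested, 6 had an unadjusted p under 0.05, and the sum of the markers ranged over 233 to 787 FPKM in control and 610 to 3520 FPKM in Villin-WlscKO tumors. The top of that range came from Ltf, at 2278 and 2226 FPKM in the pair of Krt5-high tumors, 2 and 3, against at most 24.9 FPKM elsewhere, and without Ltf the sums were 227 to 775 and 592 to 1242 FPKM. Squamous markers summed to 96.2 to 234 and 118 to 1538 FPKM, with 1 of 11, Sprr1a, past the threshold. None of 11 pan-epithelial markers passed in limma (5 at an unadjusted p under 0.05), with sums of 7548 to 10891 and 9560 to 13355 FPKM, and none of 10 proliferation markers did (0 at an unadjusted p under 0.05), with sums of 301 to 417 and 295 to 396 FPKM. Of 12 colonocyte markers 1, Krt20, passed as higher and 6 had an unadjusted p under 0.05 in limma. Of these 6, Krt20, Guca2a (change 1.10) and Ms4a12 (1.03) were higher. Slc9a3 (-0.96), Cyp2c55 (-1.73) and Car2 (-0.51) were lower. The 12 markers had a median change of 0.62 and sums of 601 to 1256 and 828 to 1665 FPKM. Of 10 fibroblast markers 1, Fbln1, passed as higher (1 at an unadjusted p under 0.05), with sums of 304 to 1049 and 409.9 to 1203 FPKM, and of 10 macrophage markers 1, Cd14, did (2 at an unadjusted p under 0.05), with sums of 424 to 992 and 388 to 714 FPKM. Endothelial and erythrocyte markers had none, also at an unadjusted p under 0.05. No marker in the table was at 0 in all tumors, but some markers of the lists were absent from it, among them Ngp, Camp, Sprr1b, Ivl and Cd8b1.

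Of the 10 genes past the threshold, 5 passed in each of 22 settings of the analysis, namely Hk2, Pfkp, Pgk1, Eno1 and Pdk4. The same count over all genes is not given here, so whether 5 of 10 is unusual is not known. Pdk1 passed in all but 1 of the 21 alternatives, Aldoa in 15, Ldha in 11, Eno3 in 9 and Slc2a1 in 8. Without Villin-WlscKO tumors 2 and 3, 7 of the 34 genes passed, 6 as higher and 1 as lower, beside 6.63% of all genes, 3.95% as higher and 2.69% as lower. These were Hk2, Pfkp, Pgk1, Eno1, Pdk1 and Pfkl as higher and Pdk4 as lower.

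The scaling of the tumors bore on the count. When all tumors were brought to 1 common FPKM total, 12 of the 34 genes passed as higher and 1 as lower, beside 8.41% and 2.51% of all genes, and with quantile normalization 5 passed as higher and 2 as lower, beside 5.33% and 6.71%. The median change of all genes was 0.097 in the former and -0.045 in the latter. Of all genes called, 56.3% were higher with FPKM as deposited, 77.0% after rescaling to the same sum and 44.3% with quantile normalization.

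**Figure D5:**
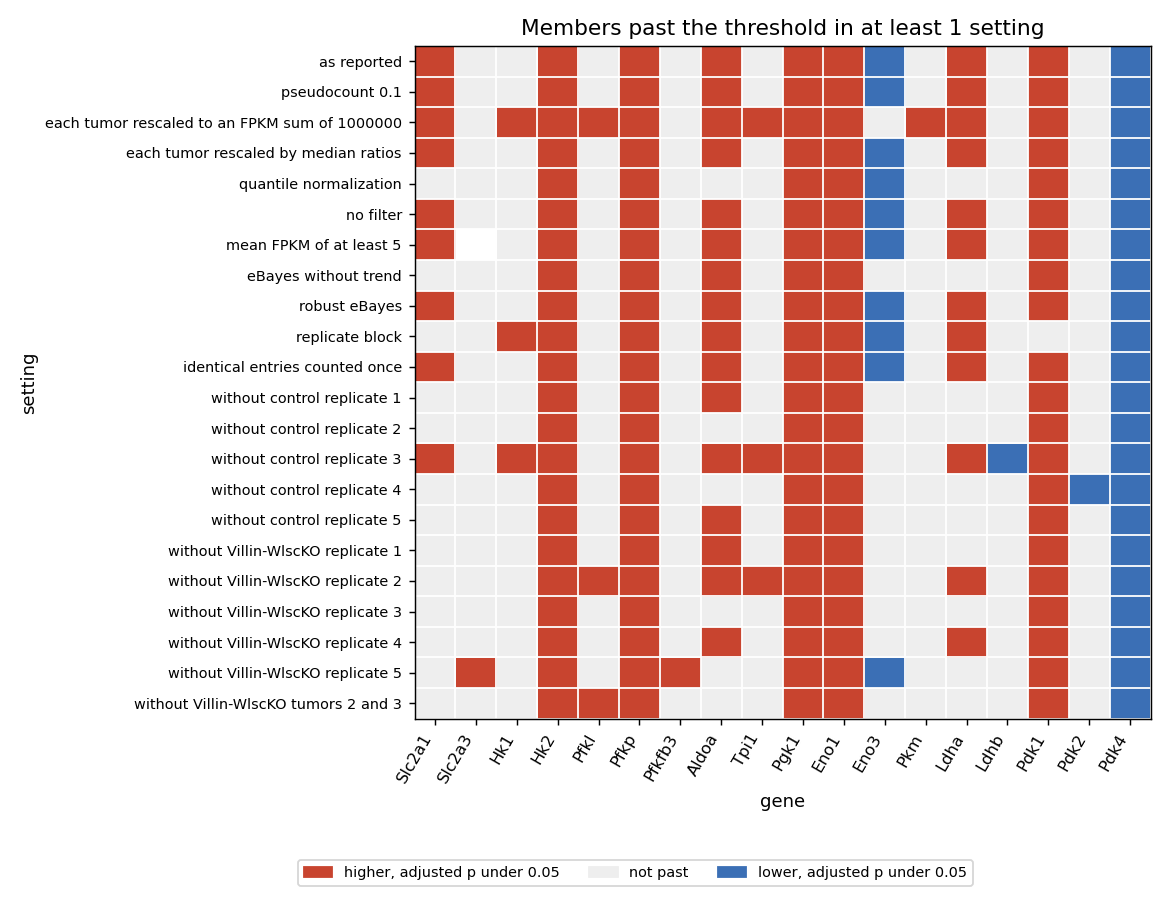
The 18 genes that passed an adjusted p of 0.05 in at least 1 of 22 settings (rows), red where higher and blue where lower in Villin-WlscKO tumors, light gray where not past the threshold and white where the gene was not tested. The columns of Hk2, Pfkp, Pgk1, Eno1 and Pdk4 are filled in every row, whereas Slc2a1, Eno3 and Ldha lose their call in many rows in which 1 tumor is left out.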

How the data were processed

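The authors prepared stranded mRNA libraries, ran FastQC on the reads, used TopHat2 2.1.1 for mapping to GRCm38.p5, and obtained transcript levels with Cufflinks 2.2.1 and Cuffdiff, per the labels and the methods of the study. The deposited values are FPKM per gene name and tumor. The annotation release and the use of strand in quantification are not given in the sources used here. The methods name default parameters for these tools, without stating how strand was handled. All 10 columns were assigned to tumors by their labels, 0 were left over. Read counts could not be recovered: in 45 pairs of tumors at most 5 of 728 to 1181 genes under 1 FPKM shared a ratio to 4 significant digits. Depth is therefore unknown, and precision rests on the spread between tumors.

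FPKM was analysed as log2(FPKM + 1) (pseudocount 1) with limma 3.58.1 in R 4.3.3, two-sided, with a variance trend, no covariate and a minimum mean of 0.5 FPKM, and p was adjusted over the 16757 genes that remained (Benjamini-Hochberg). Changes on this scale understate those of low genes. Ratios and single genes were tested by exact permutation with Python 3.11.15 and numpy 2.4.6. Positions are from GENCODE M21, which held 16056 of the names. Promoters are from RefSeq, and near-identical transcripts were found with BLAST 2.17.0. The fit was tested on simulated data.

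Values in every tumor are given for the genes past the threshold and for the most abundant gene of each of 17 steps. Genes of other lists are named where they passed, up to 5 per direction. Some colonocyte and goblet cell markers that did not pass are named as well, to show both directions of their lists. Wls, Epcam, Krt5, Xist and Eif2s3y were added as checks of the tumors, and Fbp2 and Ltf after their values were seen. The members and lists were chosen with earlier results of these data known. The alternatives were a pseudocount of 0.1, 3 other scalings, no filter or a mean of at least 5 FPKM, eBayes without trend or robust, a block for the replicate number, identical entries counted once, each tumor left out in turn, and Villin-WlscKO tumors 2 and 3 left out.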

Additional observations from a re-analysis of the deposited data

Results flagged for a closer look

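In each group of 5 tumors, on the log2(FPKM + 1) scale, the gap between the highest or lowest value and its nearest neighbor was set against the range of the group (Dixon's ratio, critical value 0.71 at the 95% level). Of 68 groups looked at, 34 genes in 2 groups each, 3 had a tumor past the limit, and chance gives about 1 in 20. Hk2 in control tumors had a ratio of 0.737, since control tumor 3 stood at 51.7 FPKM and the next at 28.9 FPKM. Without control tumor 3 the change of Hk2 was 1.61, the largest of its values with 1 tumor left out. Aldoc in Villin-WlscKO tumors had a ratio of 0.8001, with tumor 3 at 21.01 FPKM below the next at 27.5 FPKM. Pdha1 in control tumors had a ratio of 0.748, with tumor 1 at 86.6 FPKM above the next at 72.4 FPKM. Neither Aldoc nor Pdha1 passed the threshold in any setting.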

How the results depend on the processing

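The replicate numbers of the labels did not pair the tumors: correlations of the deviations of same-numbered tumors from their group means were 0.0638, -0.0868, 0.0626, 0.1001 and 0.162. With the replicate number as a block in the fit, 7 of the 34 genes passed as higher and 2 as lower, with Hk1 (0.46, adjusted p = 0.0116) gained and Slc2a1 (adjusted p = 0.0727) and Pdk1 (adjusted p = 0.0644) lost, and 991 of all genes passed as higher and 636 as lower. The sign-flip test of the paired ratios can give no p below 0.0625, and 0 of 16 ratios passed.

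Over all genes, 1822 passed, 1026 higher and 796 lower. After rescaling to the same sum 410 passed as lower, and without Villin-WlscKO tumors 2 and 3, with fewer tumors in the fit, 1101 passed, 655 higher and 446 lower. With 1 tumor left out the number past the threshold ranged from 1229 to 1986, the number higher from 695 to 1178 and the number lower from 507 (without control tumor 2) to 808.

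Of the 34 genes, 5 passed as higher with quantile normalization, and 1 as lower after rescaling to the same sum, with eBayes without trend and without Villin-WlscKO tumors 2 and 3. With 1 tumor left out, 5 to 10 passed as higher and 1 to 2 as lower. The lowest count of 5 came without control tumor 2, control tumor 4 or Villin-WlscKO tumor 3. Of the ratios, 0 to 7 passed with 1 tumor left out, where the smallest possible p is 0.0159, and 0 passed without Villin-WlscKO tumors 2 and 3, where it is 0.0357, so that the smaller groups limit these counts. The cause of the other shifts was not tested.

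Changes that turned sign did not pass the threshold in any setting. After rescaling to the same sum, Pdhb was 0.083, Fbp1 0.018 and Pck2 0.044, and with quantile normalization Eno2 was -0.033 and Pck1 -0.051. Without Villin-WlscKO tumors 2 and 3, Eno2 was -0.059, Pdhb 0.0014, Fbp1 0.018 and Pfkm/Pfkl -0.22. With 1 tumor left out, Pck1 ranged from -0.31 to 0.38, Eno2 from -0.11 to 0.17, Slc16a3 from -0.23 to 0.0018, Pfkfb2 from -0.027 to 0.13, Pgam1 from -0.0027 to 0.097, Fbp1 from -0.18 to 0.13, Pck2 from -0.10 to 0.028, Pfkm/Pfkl from -0.011 to 0.26 and Pck1/Pck2 from -0.20 to 0.89. Over the 34 genes and 21 alternatives there were 708 values, since 6 genes were not tested in 1 alternative each, Pfkfb2 with identical entries counted once and the others with the higher filter, and 627 changes kept their direction and side of the threshold, 42 lost the call, 14 gained one and 25 turned sign.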
